A study of Homo sapiens with 4 samples.

Results

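The genes that copy DNA and supply its building blocks were followed through 4 RNA libraries of A549, an established human lung adenocarcinoma line labelled as wild type. The members were 46 genes taken by symbol: origin licensing and helicase genes, polymerases, the sliding clamp and its loader, strand-joining and strand-binding genes, nucleotide enzymes, and 4 genes of S-phase entry and chromatin. All 46 had a mean of at least 1 FPKM (fragments on a transcript divided by its length and by the depth of the library), as did 12663 of the 26255 gene symbols. Cells were kept for 5 days in medium with 5% serum, either flat on a dish (2D) or on Matrigel, a gel of basement membrane proteins (3D). Both kinds of culture were run in normoxia and at 1% oxygen, here called hypoxia, so that there were 4 groups, and each group was 1 library. The question of the study was what marks the structures that A549 cells form in 3D at low oxygen.

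Replication starts at origins that are licensed in G1, when ORC, CDC6 and CDT1 load the MCM helicase ring on DNA. In S phase the kinase CDC7, MCM10, CDC45 and the GINS complex turn that ring into an active helicase, polymerases copy both strands while held by the PCNA clamp, and FEN1 and LIG1 join the fragments. Ribonucleotide reductase, thymidylate synthase, thymidine kinase and dUTPase keep the deoxynucleotides supplied, and many of these genes are transcribed through E2F factors once cyclin E activity releases them from RB.

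The libraries carried the marks of their labels. The 5 hypoxia genes set as a check (CA9, NDRG1, EGLN3, VEGFA and ADM) summed to 64.9 and 103.7 FPKM in 3D and 2D normoxia and to 888.6 and 606.0 FPKM in 3D and 2D hypoxia. All 5 epithelial markers passed 1 FPKM in every library (KRT8 from 1894 to 3731 FPKM, EPCAM only from 1.43 to 2.73). The 6 type II lung markers summed to 1.90 to 3.25 FPKM, with NKX2-1 at no more than 0.0571 FPKM and SFTPA1 listed at 0 throughout. NAPSA (0.812 to 2.06 FPKM) and SFTPD (0.500 to 1.13 FPKM) made up nearly all of that sum. The 5 endothelial markers summed to no more than 0.457 FPKM and CD3E was listed at 0. The 6 blood markers summed to 43.0 and 40.7 FPKM in 3D normoxia and hypoxia and to 31.2 and 16.5 in 2D, of which CD14 and CD68 made up nearly all and PTPRC no more than 0.0168. Of the 6 fibroblast markers only COL1A1 reached 1 FPKM, and its level (2.32 and 13.2 FPKM in 2D normoxia and hypoxia, 0.856 and 0.614 in 3D) stayed far below the keratins. The part of these marker levels in the results was not tested. Depth, read off the smallest common step in the low values, was about 11800000 and 11200000 fragments in 3D normoxia and hypoxia and 23700000 and 38600000 in 2D, so that culture and depth cannot be told apart. The thinnest value of a member, that of POLE2, still rested on about 79.9 fragments. Exons of MCM2, MCM7, GINS2, PRIM1, RFC4, RFC5, FEN1 and RPA1 overlap those of a measured gene on the other strand, and POLD2, RFC3, RFC5, FEN1 and RPA2 have named pseudogenes, which leaves their values uncertain. Counting errors below come from these depths and leave out all variation between cultures.

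Replication genes were lowest in 3D hypoxia and highest in 2D normoxia. Of the 46 members, 42 had their lowest value in 3D hypoxia, where 28.3% of all genes tested had theirs. In 2D normoxia 36 members had their highest value, against 26.4% of all genes. The full order 2D normoxia, 2D hypoxia, 3D normoxia, 3D hypoxia held for 34 members and for 11.1% of all genes, and it held for all 10 licensing genes. In 3D hypoxia the median member stood at 45.0% of its FPKM in 2D normoxia, from 22.8% for MCM10 to 114.0% for DUT, whereas the median of all genes was 97.2%. Summed FPKM of the 46 genes went from 1728.2 with normoxia and 1412.5 with hypoxia in 2D to 1236.6 and 862.5 in 3D. In bulk RNA, fewer cells in S phase and less of each transcript per cell cannot be told apart.

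**Figure D1:**
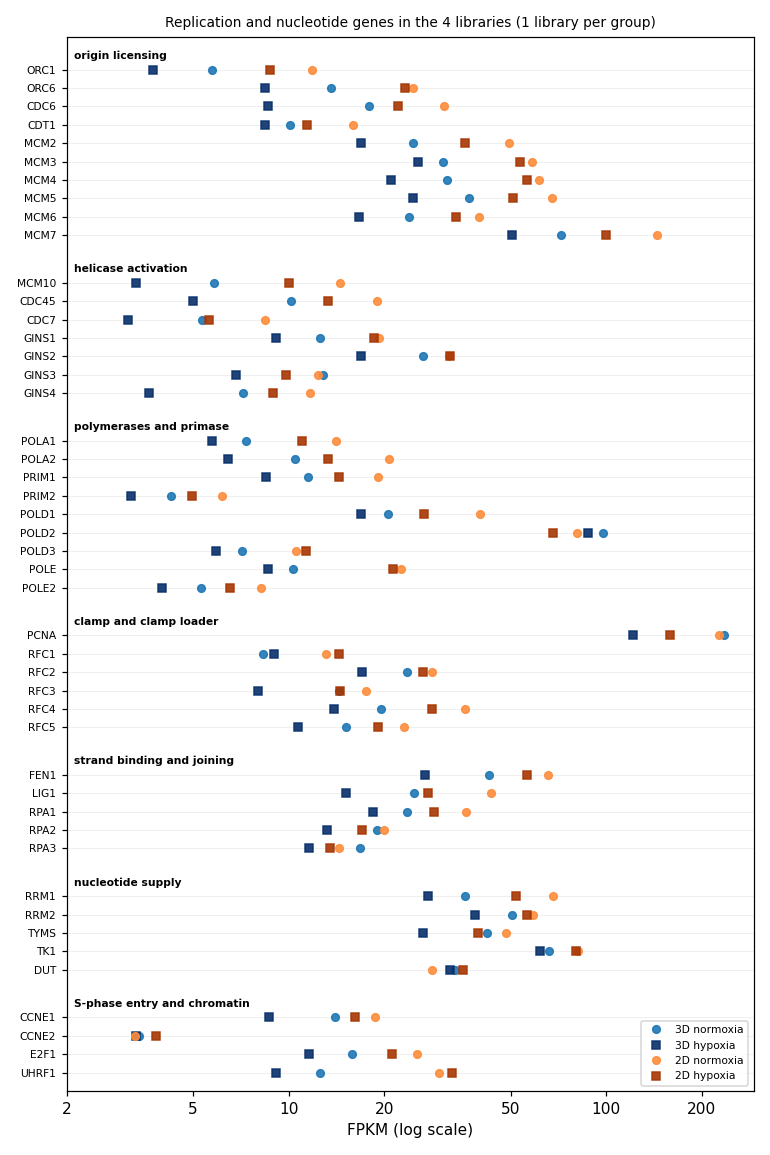
FPKM (log axis) of each of the 46 genes in the 4 libraries, grouped by role, with 1 point per library. The dark squares of 3D hypoxia lie leftmost in 42 rows, and DUT, CCNE2, POLD2 and RFC1 are the rows where they do not.

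Since the members moved together, their promoters were read for shared letters. RefSeq windows (250 bases before to 50 after a start, GRCh38.p14) were matched by symbol for 39 of the 46 genes. The windows were searched on both strands for E2F letters, given as TTCCCGC or TTGGCGC or TTCGCGC or TTGCCGC, where matches may overlap. Of the 39 genes, 31 held at least 1 match (79.5%), against 25.4% of the 9423 tested genes with a window. Counted by window, 34 of 54 member windows held a match (63.0%), against 13.0% of all 35116 windows. The CCAAT box stood in 23 of 39 members (59.0%, all tested genes 43.1%). The letters ACGTG, a form of the core to which HIF binds, stood in 13 (33.3%, all tested genes 32.8%), and other forms were not searched. The cell cycle element TTTGAA or TTCGAA stood in 3 (7.69%, all tested genes 15.05%). Of the 57 E2F matches, 41 lay from 100 bases before the start onward. Overlapping matches on both strands are each counted there, and positions were not counted over all windows. A match describes letters and is neither a bound site nor a cause.

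The stretches below run from 160 bases before to 30 after the start, 5′ to 3′ along the gene, with E2F matches in capitals. They show CDC6 with the largest drop under hypoxia in 3D, 3 genes of the licensing group, POLA2, which passed the hypoxia test, the clamp PCNA, and POLD2, whose levels were higher in both 3D libraries and which has no match.
CDC6 (chr17:40287719-40287908, plus strand): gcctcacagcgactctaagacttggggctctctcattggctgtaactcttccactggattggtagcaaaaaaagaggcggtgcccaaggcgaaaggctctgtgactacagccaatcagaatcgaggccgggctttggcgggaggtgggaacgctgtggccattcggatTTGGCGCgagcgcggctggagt
MCM6 (chr2:135876414-135876603, minus strand): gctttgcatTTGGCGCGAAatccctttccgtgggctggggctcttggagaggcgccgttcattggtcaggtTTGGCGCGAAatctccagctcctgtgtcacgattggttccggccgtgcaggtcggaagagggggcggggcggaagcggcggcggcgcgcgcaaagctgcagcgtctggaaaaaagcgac
MCM7 (chr7:100101368-100101557, minus strand): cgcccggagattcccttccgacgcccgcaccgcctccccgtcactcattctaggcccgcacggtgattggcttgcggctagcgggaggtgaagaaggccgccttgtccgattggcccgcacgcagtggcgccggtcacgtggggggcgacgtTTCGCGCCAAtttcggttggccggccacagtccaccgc
ORC1 (chr1:52404394-52404583, minus strand): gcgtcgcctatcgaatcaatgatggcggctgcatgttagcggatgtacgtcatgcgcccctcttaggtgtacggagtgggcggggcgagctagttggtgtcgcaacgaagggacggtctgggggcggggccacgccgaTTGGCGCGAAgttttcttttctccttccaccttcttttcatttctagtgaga
POLA2 (chr11:65261802-65261991, plus strand): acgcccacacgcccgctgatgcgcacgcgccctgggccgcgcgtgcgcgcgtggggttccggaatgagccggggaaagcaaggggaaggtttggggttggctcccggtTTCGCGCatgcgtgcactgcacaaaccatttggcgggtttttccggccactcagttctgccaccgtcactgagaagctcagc
PCNA (chr20:5126593-5126782, minus strand): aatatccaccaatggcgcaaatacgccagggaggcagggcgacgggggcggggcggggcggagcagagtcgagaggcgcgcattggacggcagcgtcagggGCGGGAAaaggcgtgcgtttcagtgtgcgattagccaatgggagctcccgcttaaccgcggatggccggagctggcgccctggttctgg
POLD2 (chr7:44123519-44123708, minus strand): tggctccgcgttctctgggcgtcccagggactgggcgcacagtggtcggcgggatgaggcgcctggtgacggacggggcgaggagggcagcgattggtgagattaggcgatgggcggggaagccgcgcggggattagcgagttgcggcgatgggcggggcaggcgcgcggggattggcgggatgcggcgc
In MCM6, MCM7 and ORC1 the capitals are overlapping pairs, one match read on each strand. With the first transcribed base as 1 and the base before it as -1, MCM6 holds pairs at -151 to -142 and at -89 to -80, ORC1 one at -22 to -13 and MCM7 one at -8 to 2. The single matches lie at -59 to -53 in PCNA, at -52 to -46 in POLA2 and at 9 to 15 in CDC6. RFC1 and DUT, which did not follow the others under hypoxia, hold 2 matches each in a window. CDC45 and MCM10, at 26.4% and 22.8% of their 2D normoxia FPKM in 3D hypoxia, hold no match to the E2F letters searched. Near variants of those letters were not searched.

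**Figure D2:**
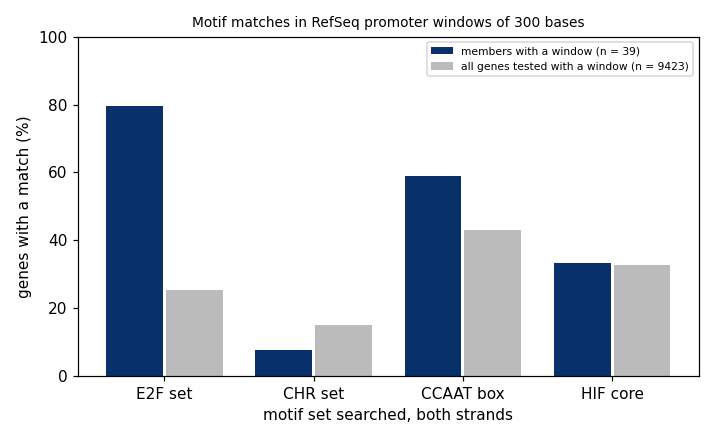
Share of genes (%) with at least 1 match of each motif set in a promoter window, for the 39 members and the 9423 tested genes that have one. The E2F set stands at 79.5% against 25.4%, while the letters ACGTG, labelled HIF core, are level at 33.3% and 32.8%.

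The first comparison was hypoxia against normoxia in 3D. There 45 of the 46 members had a log2 ratio of FPKM + 1 below 0, where 52.0% of all genes did, with a median of -0.48 (all genes -0.02). Fold sizes here and below are those of FPKM + 1. At least 1.5-fold lower were 15 members, against 4.59% of all genes, and 0 were at least 2-fold lower (all genes 1.11%). In FPKM without the added 1, CDC6 and CDC45 did fall by over 2-fold, to 48.2% and 49.2% of 3D normoxia. In 2D 40 of 46 lay below 0 (all genes 50.3%), with a median of -0.27. Only 2 members, LIG1 and POLA2, were at least 1.5-fold lower there (all genes 5.43%) and 0 at least 2-fold lower (all genes 1.59%). The ratio in 3D was below that in 2D for 40 members (51.8% of all genes), with a median difference of -0.19. With 1 library per group these are sizes without a test.

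The average of the 2 hypoxia responses can be given an error by limma. By it 2 members fell at an adjusted p below 0.05 and 0 rose, where 1.64% of all genes fell and 3.20% rose. LIG1, the ligase that seals lagging-strand fragments, fell by 0.66 ± 0.11 (SE) on the log2 scale (limma adjusted p = 0.0400). POLA2, the B subunit of the polymerase that starts each strand, fell by 0.62 ± 0.11 (limma adjusted p = 0.0452). Neither call held without trend in limma (adjusted p = 0.0635 and 0.0704) or with libraries scaled to the same median gene (0.0551 and 0.0601), nor without the filter on low genes (0.122 and 0.146). At an unadjusted p below 0.05, 29 members were lower and 0 higher, where 3242 of all 12663 genes passed in either direction. CDC6 and PCNA had the lowest estimates, -0.72 ± 0.15 and -0.73 ± 0.16, but missed the threshold (limma adjusted p = 0.0637 and 0.0638). Both passed at a mean of at least 5 FPKM (0.034 and 0.0476) and with libraries made to sum to 1000000 (0.0494 and 0.0486).

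The second comparison was 3D against 2D. It uses the same 4 libraries as the first, so the values of both are only set side by side. In normoxia 40 of 46 members had a log2 ratio below 0 (all genes 52.9%), with a median of -0.61, 26 were at least 1.5-fold lower (all genes 10.0%) and 3 at least 2-fold lower (all genes 2.49%). Those 3 were MCM10, UHRF1 and POLE. In FPKM without the added 1, ORC1, MCM2 and MCM7 were also over 2-fold lower, at 48.2%, 49.7% and 49.8% of 2D normoxia. In hypoxia 45 of 46 lay below 0 (all genes 52.9%), with a median of -0.83, 34 were at least 1.5-fold lower (all genes 10.1%) and 13 at least 2-fold lower (all genes 3.02%). Averaged over both oxygen levels, 33 members fell in 3D by limma and 0 rose, against 11.6% and 10.4% of all genes. At an unadjusted p below 0.05, 39 were lower and 1, POLD2, was higher, where 5097 of all 12663 genes passed in either direction. Without the filter on low genes, 0 members passed by limma, with a smallest adjusted p of 0.0547, while 39 were lower and 1 higher at an unadjusted p below 0.05. With the FPKM of every library made to sum to 1000000, 39 members fell and 0 rose, where 3141 of all 13682 genes fell and 785 rose. The median of all genes then moved from -0.03 to -0.21 in both oxygen levels. Of all genes called for culture, 52.9% were lower in 3D as deposited and 80.0% after that rescaling. For hypoxia the lower share went from 33.9% to 58.4%.

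**Figure D3:**
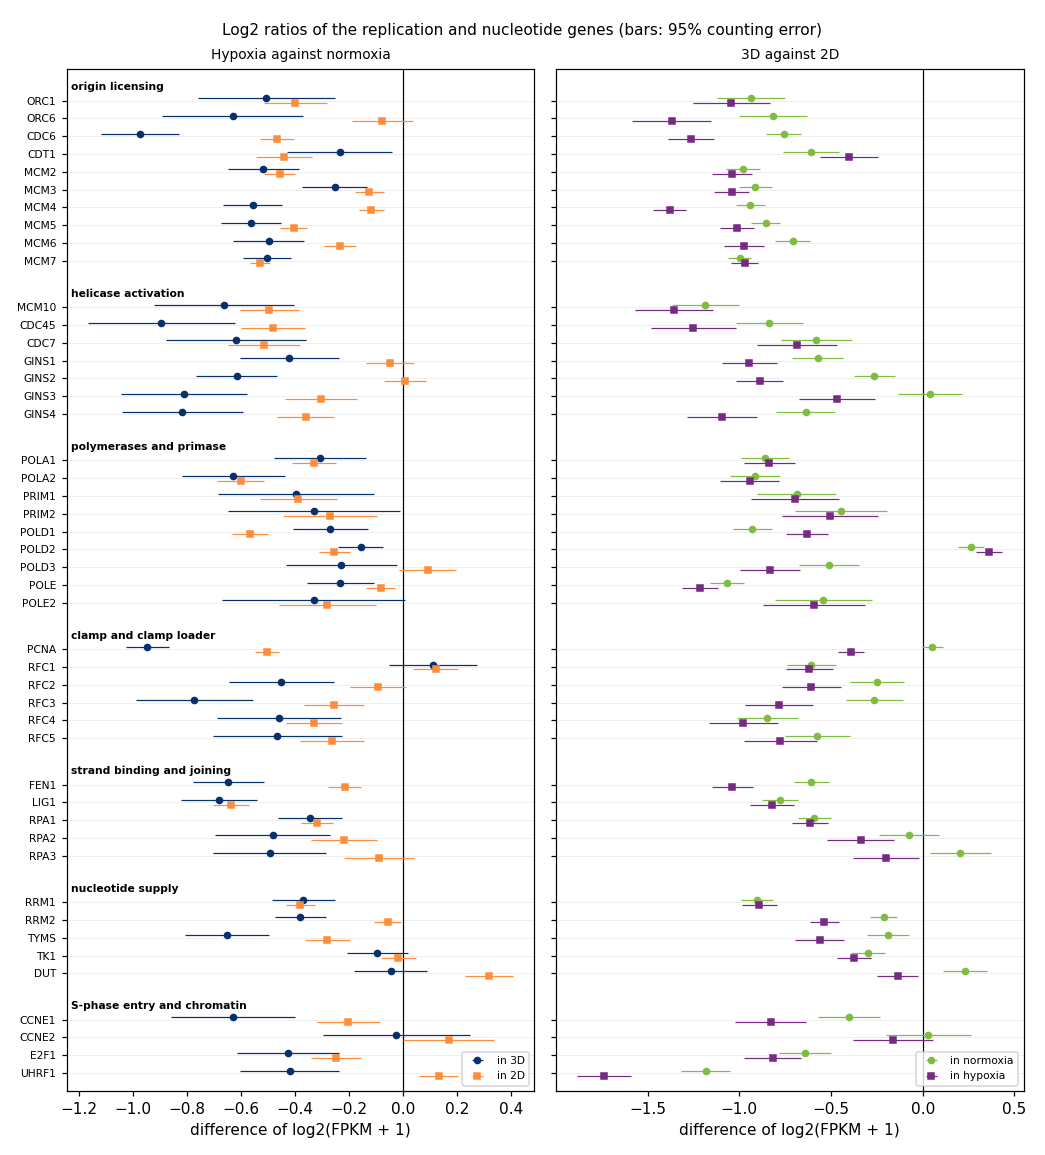
Differences of log2(FPKM + 1) for the 46 genes, hypoxia against normoxia on the left (in 3D and 2D) and 3D against 2D on the right (in normoxia and hypoxia), with bars for 95% counting intervals. Points lie left of 0 for 45 genes in 3D and 40 in 2D on the left, and for 40 and 45 genes on the right.

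Origin licensing genes fell together in 3D. All 10 passed by limma (all genes 11.6%), but 0 did without the filter on low genes. Their median log2 ratio of 3D against 2D was -0.88 in normoxia and -1.04 in hypoxia. In hypoxia 7 of 10 were at least 2-fold lower (all genes 3.02%). CDC6, the ATPase that loads the helicase ring, was at 30.9, 22.1, 17.8 and 8.59 FPKM. Each set of 4 values is given for 2D normoxia first, then 2D hypoxia, 3D normoxia and last 3D hypoxia. Its log2 ratio under hypoxia was -0.97 in 3D (counting error 0.07) and -0.47 in 2D (0.03), and it fell by 1.01 ± 0.15 in 3D (SE, limma adjusted p = 0.0147). ORC1, the largest subunit of the origin recognition complex, was at 11.9, 8.74, 5.71 and 3.72 FPKM, and its small partner ORC6 at 24.6, 23.3, 13.6 and 8.40. The 2 differed in 2D hypoxia, where ORC1 had a log2 ratio of -0.40 and ORC6 one of -0.08. CDT1, which brings the ring to ORC, had 15.9, 11.4, 10.1 and 8.42 FPKM. It had the smallest culture effect of the group, an effect of -0.51 ± 0.12 (SE, limma adjusted p = 0.0379), and it did not pass without trend (adjusted p = 0.0536) or with the same median gene (0.0537).

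The 6 MCM genes encode the ring itself. MCM7 was the most abundant in every library, at 144.4, 99.7, 71.9 and 50.4 FPKM, and MCM6 the least, at 39.8, 33.7, 24.0 and 16.7. Their levels thus lay 2.96 to 3.63-fold apart in all 4 libraries. MCM2 was at 49.5, 35.8, 24.6 and 16.9 FPKM, MCM3 at 58.5, 53.5, 30.6 and 25.5, MCM4 at 61.2, 56.3, 31.4 and 21.04, and MCM5 at 67.5, 50.7, 36.8 and 24.6. All 6 had the full order 2D normoxia, 2D hypoxia, 3D normoxia, 3D hypoxia, which 11.1% of all genes had. The summed FPKM of the ring was 420.9, 329.7, 219.3 and 155.0. Culture effects ran from -0.84 ± 0.13 for MCM6 to -1.16 ± 0.15 for MCM4 (SE, limma adjusted p = 0.0141 and 0.0108). Under hypoxia MCM2 and MCM7 had similar ratios in 3D (-0.52 and -0.50) and in 2D (-0.46 and -0.53), while MCM4 was at -0.56 in 3D (counting error 0.06) and -0.12 in 2D (0.02). None of the 6 passed the hypoxia test (limma adjusted p from 0.0713 for MCM7 to 0.359 for MCM3), although MCM2 and MCM7 did with libraries made to sum to 1000000 (0.0486 and 0.0472).

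Genes that activate the helicase had the lowest median under hypoxia in 3D, -0.66, and a median of -0.36 in 2D. In 3D 6 of 7 were at least 1.5-fold lower (all genes 4.59%). MCM10, a scaffold of the starting fork, was at 14.5, 10.0, 5.83 and 3.31 FPKM. It fell by 1.27 ± 0.12 in 3D (SE, limma adjusted p = 0.00795), the smallest p of the members. CDC45, a partner of MCM and GINS in the helicase, was at 19.0, 13.3, 10.2 and 5.01 FPKM and fell by 1.04 ± 0.14 in 3D (SE, limma adjusted p = 0.0124). CDC7, the kinase that fires origins, was at 8.45, 5.61, 5.32 and 3.11 FPKM, so that 2D hypoxia and 3D normoxia lay close together.

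The 4 subunits of GINS differed among themselves. GINS1 (19.2, 18.5, 12.6 and 9.13 FPKM) and GINS4 (11.7, 8.89, 7.16 and 3.63) fell in 3D (culture effects -0.76 ± 0.14 and -0.87 ± 0.15 SE, limma adjusted p = 0.0205 and 0.0194). GINS2 was at 32.0, 32.2, 26.5 and 16.9 FPKM and GINS3 at 12.4, 9.83, 12.8 and 6.84, and neither passed (limma adjusted p = 0.0637 and 0.346). GINS2 did pass at a mean of at least 5 FPKM (0.0433) and with libraries made to sum to 1000000 (0.0292). It was lower in 3D normoxia than in both 2D libraries (log2 ratio -0.26 in normoxia, counting error 0.06) and lowest in 3D hypoxia, with a log2 ratio under hypoxia of -0.62 in 3D (counting error 0.08) and 0.01 in 2D (0.04, and -0.13 after rescaling to a sum of 1000000). GINS2 was the most abundant subunit and GINS4 the least in every library, 2.74-fold apart in 2D normoxia and 4.67-fold in 3D hypoxia.

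**Figure D4:**
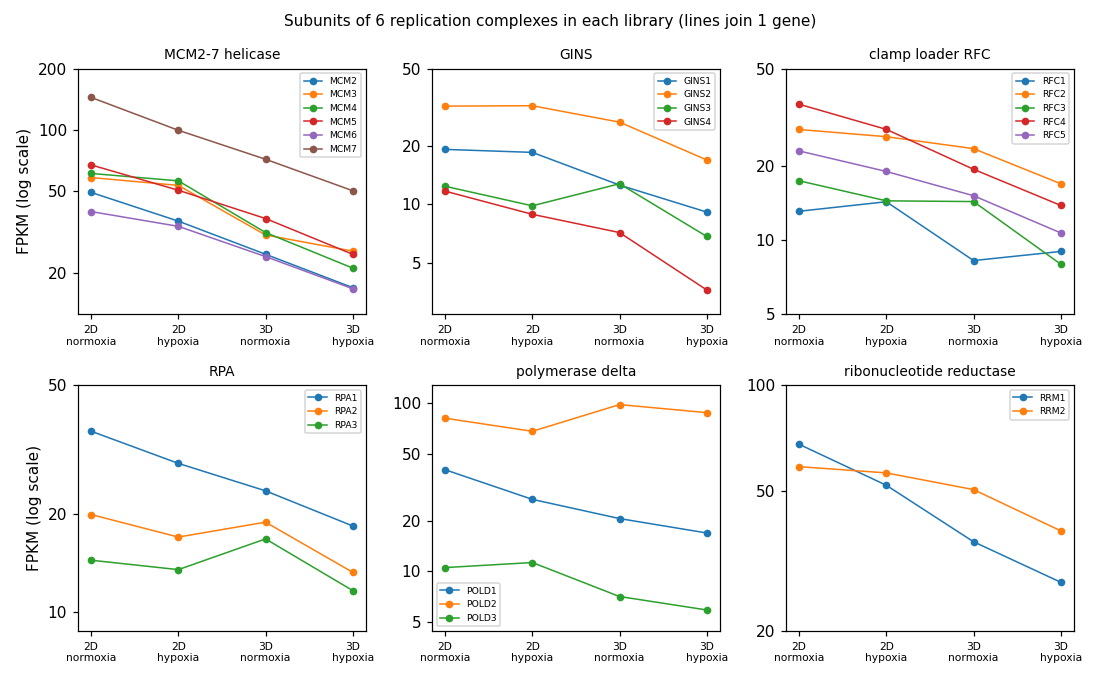
FPKM (log axis) of the subunits of 6 complexes in each library, with 1 line per gene. MCM7 is the top and MCM6 the bottom line of the MCM panel in every library while MCM3, MCM4 and MCM5 change places between them, POLD2 is higher in both 3D libraries than in either 2D library, and the lines of RRM1 and RRM2 cross between 2D normoxia and 2D hypoxia.

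Polymerase and primase genes had the smallest median hypoxia ratio in 3D among the 7 roles, -0.31 (2D -0.28), but a culture ratio of -0.69 in normoxia. By limma 8 of 9 fell in 3D (all genes 11.6%). POLE, the catalytic subunit of the leading-strand enzyme, was at 22.6, 21.3, 10.3 and 8.61 FPKM. It differed little with oxygen (limma adjusted p = 0.435) and fell by 1.14 ± 0.12 in 3D (SE, limma adjusted p = 0.00856). Its partner POLE2 was at 8.15, 6.53, 5.29 and 3.999 FPKM. POLA2 was at 20.7, 13.3, 10.48 and 6.42 FPKM, POLA1, the catalytic subunit, at 14.1, 11.002, 7.32 and 5.72, and the primase subunit PRIM1 at 19.2, 14.4, 11.5 and 8.50. All 3 had the full order 2D normoxia, 2D hypoxia, 3D normoxia, 3D hypoxia, which 11.1% of all genes had. PRIM2, the other primase subunit, which has near-identical partial copies and is uncertain for that reason, was at 6.17, 4.95, 4.27 and 3.19 FPKM. It passed for culture narrowly (limma adjusted p = 0.0491), and not without trend (0.0537) or with the same median gene (0.0634).

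Polymerase delta, the lagging-strand enzyme, split within itself. Its catalytic gene POLD1 was at 40.1, 26.7, 20.6 and 16.9 FPKM and the subunit POLD3 at 10.54, 11.3, 7.10 and 5.91, and both fell in 3D (limma adjusted p = 0.0177 and 0.0249). POLD2, the small subunit, was at 81.0, 67.7, 97.5 and 87.3 FPKM, higher in both 3D libraries than in either 2D library. Its culture effect of 0.31 ± 0.12 (SE) did not pass (limma adjusted p = 0.110). POLD2 therefore stood 7.69-fold over POLD3 in 2D normoxia and 14.8-fold in 3D hypoxia. POLD1 had a lower ratio under hypoxia in 2D (-0.57) than in 3D (-0.27), the largest difference in that direction among the members.

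PCNA, the ring that holds polymerases on DNA, was the most abundant member in each library, at 225.8, 158.9, 234.1 and 120.9 FPKM. Both normoxic levels lay above both hypoxic levels, so PCNA sorted by oxygen where most members sorted by culture. GINS3 and RPA3 had the same order as PCNA (3 members, 3.32% of all genes). RPA2 and TYMS also had both normoxic levels on top, in another order (2 members, 5.80% of all genes). The log2 ratio of PCNA under hypoxia was -0.95 in 3D (counting error 0.04) and -0.50 in 2D (0.02). In normoxia its ratio of 3D to 2D was 0.05, which became -0.15 once libraries were made to sum to 1000000, and the culture effect did not pass (-0.17 ± 0.16 SE, limma adjusted p = 0.455). PCNA has 3 pseudogenes named after it in GENCODE 29 that could share fragments.

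The clamp loader RFC opens the ring onto DNA. RFC4 (35.8, 28.3, 19.5 and 13.9 FPKM), RFC5 (23.1, 19.1, 15.2 and 10.7) and the large subunit RFC1 fell in 3D (culture effects -0.91 ± 0.12, -0.68 ± 0.12 and -0.61 ± 0.11 SE, limma adjusted p = 0.0108, 0.0199 and 0.0213). RFC1 was at 13.1, 14.4, 8.27 and 9.01 FPKM and had log2 ratios under hypoxia of 0.11 in 3D and 0.12 in 2D, which were -0.01 and -0.01 after rescaling to a sum of 1000000. It was the member with a ratio above 0 in 3D as deposited. RFC2 (28.3, 26.4, 23.6 and 17.0 FPKM) and RFC3 (17.5, 14.5, 14.4 and 7.99) did not pass for culture (limma adjusted p = 0.0718 and 0.0631), but did at a mean of at least 5 FPKM (0.0499 and 0.0389) and with libraries made to sum to 1000000 (0.0269 and 0.0284). RFC3 was highest in 2D normoxia and lowest in 3D hypoxia. RFC3 was the least abundant subunit in 3D hypoxia and RFC1 in the other 3 libraries.

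Of the genes for strand binding and joining, 3 of 5 fell in 3D by limma (all genes 11.6%). LIG1 was at 43.2, 27.4, 24.8 and 15.1 FPKM, with like ratios under hypoxia in 3D (-0.68) and 2D (-0.64), and fell by 0.80 ± 0.11 in 3D (SE, limma adjusted p = 0.0130). FEN1, the flap nuclease that trims fragments before ligation, was at 65.4, 56.1, 42.6 and 26.8 FPKM, with ratios of -0.65 in 3D and -0.22 in 2D. It fell by 0.82 ± 0.15 in 3D (SE, limma adjusted p = 0.0200). The single-strand binding complex RPA was uneven. RPA1 (36.1, 28.7, 23.6 and 18.4 FPKM) fell by 0.60 ± 0.11 in 3D (SE, limma adjusted p = 0.0219), while RPA2 (19.96, 17.0, 18.9 and 13.2) and RPA3 (14.4, 13.5, 16.8 and 11.6) did not pass (0.264 and 0.989). RPA3 was highest in 3D normoxia, and its exons overlap those of UMAD1 on the other strand.

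Nucleotide genes differed least with culture, with a median log2 ratio of 3D against 2D of -0.21 in normoxia and -0.54 in hypoxia. RRM1, the large subunit of ribonucleotide reductase, was the 1 of 5 that fell in 3D (68.0, 52.0, 35.9 and 27.5 FPKM, -0.90 ± 0.11 SE, limma adjusted p = 0.0109), where 11.6% of all genes fell. With libraries made to sum to 1000000, 4 of 5 fell, as RRM2, TYMS and TK1 then passed too (limma adjusted p = 0.0307, 0.0335 and 0.0264). In that scaling 3141 of all 13682 genes fell in 3D. RRM2, the small subunit that is made in S phase, was at 58.7, 56.4, 50.5 and 38.6 FPKM and did not pass (limma adjusted p = 0.0947). RRM1 was thus above RRM2 in 2D normoxia, and RRM2 was 1.41-fold above RRM1 in 3D normoxia and 1.40-fold in 3D hypoxia. TYMS, which makes thymidylate, was at 48.2, 39.5, 42.1 and 26.4 FPKM (limma adjusted p = 0.101 for culture). Its exons overlap those of ENOSF1 and TYMSOS on the other strand. TK1, the salvage kinase for thymidine, was at 81.5, 80.5, 66.1 and 61.8 FPKM, a pattern of culture with little difference by oxygen (log2 ratios -0.10 and -0.02). DUT, which keeps uracil out of DNA, was at 28.2, 35.5, 33.3 and 32.2 FPKM and was lowest in 2D normoxia, where most members were highest. It has 8 named pseudogenes, and RRM2 has 3.

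Among the genes of S-phase entry and chromatin, UHRF1, which guides maintenance methylation behind the fork, had the largest culture effect of the members. It was at 29.7, 32.6, 12.5 and 9.09 FPKM and fell by 1.46 ± 0.16 in 3D (SE, limma adjusted p = 0.00921), and both 3D values lay far below both 2D values. Under hypoxia its log2 ratio was -0.42 in 3D (counting error 0.09) and 0.13 in 2D (0.04), but with libraries made to sum to 1000000 the 2D value was 0.0013 and that in 3D -0.56. E2F1, the transcription factor itself, was at 25.3, 21.1, 15.9 and 11.5 FPKM, and CCNE1, a cyclin that drives S-phase entry, at 18.7, 16.2, 13.9 and 8.65. Both fell in 3D (culture effects -0.73 ± 0.12 and -0.62 ± 0.14 SE, limma adjusted p = 0.0168 and 0.0354), and CCNE1 did not pass with the same median gene (0.051). CCNE2, its sister cyclin, was nearly level at 3.28, 3.81, 3.38 and 3.30 FPKM, and its exons overlap those of INTS8 on the other strand.

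**Figure D5:**
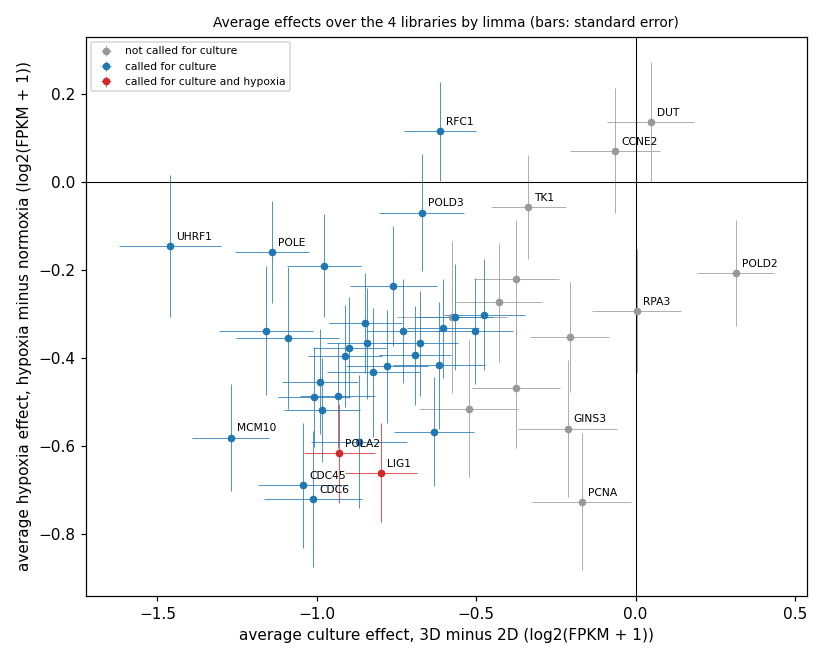
Average culture effect (3D minus 2D) against average hypoxia effect (hypoxia minus normoxia) of each of the 46 genes, both on the log2(FPKM + 1) scale with standard errors from limma over 4 libraries. The 33 genes called for culture lie left of 0 (blue and red), the 2 called for hypoxia as well are LIG1 and POLA2 (red), and PCNA is low for hypoxia but near 0 for culture.

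The other genes of the pathway were listed by role, with earlier results of these data known. Of 29 further origin and fork genes, 15 fell and 1 (POLD4) rose in 3D by limma, against 11.6% and 10.4% of all genes. Their median log2 ratios of 3D against 2D were -0.47 in normoxia and -0.56 in hypoxia. For hypoxia 3 fell and 0 rose, against 1.64% and 3.20% of all genes. TIMELESS, which protects forks, was at 45.4, 31.5, 20.5 and 12.4 FPKM, CLSPN, a checkpoint adaptor at the fork, at 7.34, 5.85, 2.66 and 1.53, and CHTF18, of an alternative clamp loader, at 14.1, 8.23, 7.12 and 4.13. All 3 had the order of the licensing genes, which 11.1% of all genes had. Of 24 further nucleotide and chromatin assembly genes, 9 fell and 1 (RRM2B) rose in 3D (all genes 11.6% and 10.4%). For hypoxia 0 of the 24 passed by limma. At an unadjusted p below 0.05 there were 6, a share near that of all genes (3242 of 12663). CHAF1A, of the histone chaperone CAF-1, was at 21.6, 15.7, 10.6 and 6.04 FPKM, and DNMT1, the maintenance methyltransferase, at 43.3, 34.6, 20.3 and 14.001. CTPS1, which makes CTP, went another way under hypoxia, at 53.0, 79.4, 21.4 and 22.5 FPKM.

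Mitotic genes, the nearest other programme, had a median log2 ratio of 3D against 2D of -0.97 in normoxia and -1.05 in hypoxia. By limma 19 of 20 fell in 3D (all genes 11.6%). Beside these, the members had -0.61 and -0.83, with 33 of 46. Under hypoxia the medians were -0.43 in 3D and -0.22 in 2D for mitotic genes, and -0.48 and -0.27 for the members. MKI67, the proliferation marker, was at 93.4, 78.1, 32.3 and 24.0 FPKM, TOP2A, which untangles chromosomes, at 135.3, 111.8, 54.3 and 39.9, and CENPF, of the kinetochore, at 44.9, 44.1, 14.7 and 13.2. The differences between the lists were not tested.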

How the data were processed

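RNA of A549 cells was sequenced in 4 libraries, grouped by the labels into 2D or 3D culture in normoxia or hypoxia. A TruSeq Stranded mRNA kit was used per the labels' protocols. What the authors deposited are FPKM values by gene symbol. Cuffdiff 2.2.1, TopHat2 2.1.1, SAMtools 0.1.18 and Bowtie2 2.2.8 are named in the submitters' processing notes, with hg19 as the build. Which annotation, scaling and strand setting were used is not given here, so overlapping genes on opposite strands cannot be told apart. Of the members, 11 have such an overlap with a measured gene and 9 have named pseudogenes in GENCODE 29.

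Values were taken as log2(FPKM + 1), which understates differences of low genes, for genes whose mean was 1 FPKM or more. Average effects of culture and oxygen were fitted as additive terms across all 12663 genes with limma 3.58.1 in R 4.3.3 (trend, 1 residual and 4.67 prior degrees of freedom, Benjamini-Hochberg adjustment, threshold 0.05), and the fit was tested on simulated data. Nothing says that the libraries came from separate experiments, so a p-value reflects only how these 4 libraries vary, which may be technical, and the residual holds any real difference between the cultures' hypoxia responses. Pairs of libraries were described by size. Depth was inferred from FPKM times length among 2135 genes with a single transcript over 1000 bases (GENCODE 29 lengths), with 48 to 63 genes at the commonest value, and is an estimate. Alternatives were a pseudocount of 0.1, no filter, a mean of at least 5 FPKM, 2 rescalings, no trend and a size of 1.5-fold. Other steps ran in Python 3.11.15, numpy 2.4.6, pandas 2.3.3 and matplotlib 3.10.9.

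The members and lists were chosen with earlier results of these data known. The rule for named genes gave every member called by limma, PCNA, 3 members per role and 3 genes per other list with the largest summed log2 ratios, and the remaining members were added so that each is shown. Promoter sequences are those of RefSeq.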

Additional observations from a re-analysis of the deposited data

Results flagged for a closer look

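UHRF1 had hypoxia responses on opposite sides of 0 in the 2 cultures, each beyond its 95% counting interval. Its log2 ratio was -0.42 in 3D and 0.13 in 2D, a difference of -0.55 with a counting error of 0.10. With libraries made to sum to 1000000 the 2D value was 0.0013, within its counting error, so the opposite sides were lost, while the 3D value was -0.56 and the difference -0.56. The difference was not tested, since each response rests on 1 library per condition.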

How the results depend on the processing

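No paired analysis was possible because each group has 1 library and the labels give no replicate numbers, and for the same reason no library could be left out of the fit. The members' medians kept their sign in all 5 comparisons under every alternative run. Rescaling to a sum of 1000000 moved the median from -0.83 to -1.04 for 3D against 2D in hypoxia, from -0.61 to -0.82 in normoxia and from -0.27 to -0.41 for hypoxia in 2D. Under it 26, 16 and 4 members were at least 2-fold lower for 3D against 2D in hypoxia, in normoxia and for hypoxia in 3D, in place of 13, 3 and 0. The medians of all genes were then -0.21, -0.21 and -0.13, and the 2-fold shares of all genes were not computed. With a pseudocount of 0.1 the last 2 counts were 6 and 2. At 1.5-fold in place of 2-fold the counts were 34, 26, 15 and, for hypoxia in 2D, 2. By limma the members that fell with hypoxia went from 2 to 6 at a mean of at least 5 FPKM. Calls among all genes are not given for that setting. After rescaling to a sum of 1000000, 9 members fell, where 362 of all 13682 genes fell. The hypoxia calls among members went to 0 with the same median gene, without trend and without the filter on low genes. There 29, 28 and 27 members were lower at an unadjusted p below 0.05. As deposited, 3242 of all 12663 genes passed that level in either direction. Without that filter the members that fell with culture went from 33 to 0, and they were 30 to 39 under the other alternatives. Of those alternatives, calls among all genes are given above only for the sum of 1000000. Rescaling to a sum of 1000000 turned 4 small estimates that had not passed, to -0.0074 for RFC1 and -0.035 for CCNE2 under hypoxia and to -0.19 for RPA3 and -0.15 for DUT with culture. The 3D libraries are the shallower ones, so their counting errors dominate those of the ratios.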
